A study of Saccharomyces cerevisiae with 13 samples.

Results

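The genes described here are 9 regulators of stress and quiescence in Saccharomyces cerevisiae, budding yeast: the kinase genes RIM15 and YAK1, the endosulfine genes IGO1 and IGO2, and the transcription regulator genes MSN2, MSN4, GIS1, RPH1 and XBP1. They were chosen by name, each through the probe set with the highest mean signal for its symbol, and all 9 were measured, among 5449 genes in all. Each of the 9 had 1 probe set on the array. Cells of the haploid strain BY4741 were taken from mid-log cultures in rich YPD medium and exposed for 30 min before RNA extraction and hybridisation to one-colour Affymetrix yeast arrays. Every treatment was compared with DMSO, the solvent. The labels number replicates without saying that they came from separate cultures, so the p-values measure only the spread between these arrays, which may be technical.

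The 8 groups, 13 arrays in all, were SMER1 at 20 µM together with rapamycin at 100 nM (written SMER1+Rapa, 2 arrays), SMER1 at 20 µM (2 arrays), rapamycin at 100 nM (2 arrays), SMER3, SMER2, SMER4 and SMER5 at 20 µM each (1 array each), and DMSO (3 arrays). The name SMER stands for small molecule enhancer of rapamycin, and the compounds are known here by code only. Rapamycin inhibits TOR complex 1 (TORC1), the kinase complex through which nutrients drive growth. The design asked how the profiles of SMER-treated cells compare with those of DMSO-treated and rapamycin-treated cells.

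In growing cells, TORC1, its effector kinase Sch9 and protein kinase A hold the stress and quiescence regulators in check, largely by keeping them phosphorylated or out of the nucleus. When this hold is released, the kinase Rim15 phosphorylates the endosulfines Igo1 and Igo2, which then inhibit the Cdc55 form of the phosphatase PP2A and protect the messages of the quiescence programme. Msn2, Msn4 and Gis1 switch on stress and post-diauxic genes, Yak1 is a growth-restraining kinase that phosphorylates several of these proteins, and Xbp1 and Rph1 are known as repressors. Much of this control acts on proteins, whereas the arrays measured messenger RNA.

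Values are deposited log2 signals, and a difference of 1 on this scale is a doubling. Array medians lay between 10.99 and 11.07, and the SD of replicate arrays, as the median over genes, was 0.07 for SMER1+Rapa, 0.09 for SMER1, 0.08 for rapamycin and 0.11 for DMSO. Differences came from 1 limma fit to all arrays and are given ± the standard error, and a called gene is one with a Benjamini-Hochberg adjusted p under 0.05 over all 5449 genes. Groups of 1 array borrow their spread from the replicated groups, and their differences have no replicate check. The table holds no detection calls, so whether a dim gene lay above background is unknown, and a signal from bulk RNA cannot tell a change in every cell from a change in some cells. Of the strain's marker genes, URA3, MET17 and LEU2 are deleted in BY4741 and gave signals of 1.97 to 4.55, 4.05 to 5.78 and 6.29 to 8.61. HIS3, whose allele there is a partial deletion, gave 12.14 to 13.18. Signals of 6 genes specific to MATa, the mating type of BY4741, ran between 11.19 and 13.93. Of 4 genes specific to the other mating type, MF(ALPHA)1 gave 2.74 to 6.53, MF(ALPHA)2 3.96 to 7.01 and STE3 6.38 to 8.49. The last of them, SAG1, gave 9.84 to 10.43, closer to the MATa genes.

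XBP1 and YAK1 rose in all 4 of SMER1+Rapa, SMER1, rapamycin and SMER3, XBP1 with the largest difference of the 9 genes in each of them. MSN4 rose in 3 of the 4 and was not called in SMER3. RPH1 fell and MSN2 rose in SMER3, and neither was called in the other 3 in the fit without a replicate block. With the replicate number as a block, MSN2 was called higher in all of these 3 and RPH1 lower in SMER1+Rapa. RIM15 rose in all 4, and GIS1, IGO1 and IGO2 rose in SMER1+Rapa, SMER1 and SMER3 and were not called in rapamycin. None of the 9 genes was called in SMER2, SMER4 or SMER5. With SMER1+Rapa, 7 of the 9 genes rose and none fell, while 39.6% of all genes tested were called higher and 31.2% lower. With SMER1, the same 7 genes rose and none fell, against a background of 36.5% higher and 25% lower. With rapamycin, 4 rose and none fell, against 39.7% higher and 20.4% lower, so that the share of regulators called higher, 44.4%, was near that of all genes. With SMER3, 7 rose and 1 fell, against 21.6% higher and 14.8% lower. The median difference of the 9 genes was 0.78 in SMER1+Rapa, 0.57 in SMER1, 0.27 in rapamycin and 0.58 in SMER3, and that of all genes was 0.09, 0.09, 0.16 and 0.01 in the same order.

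**Figure D1:**
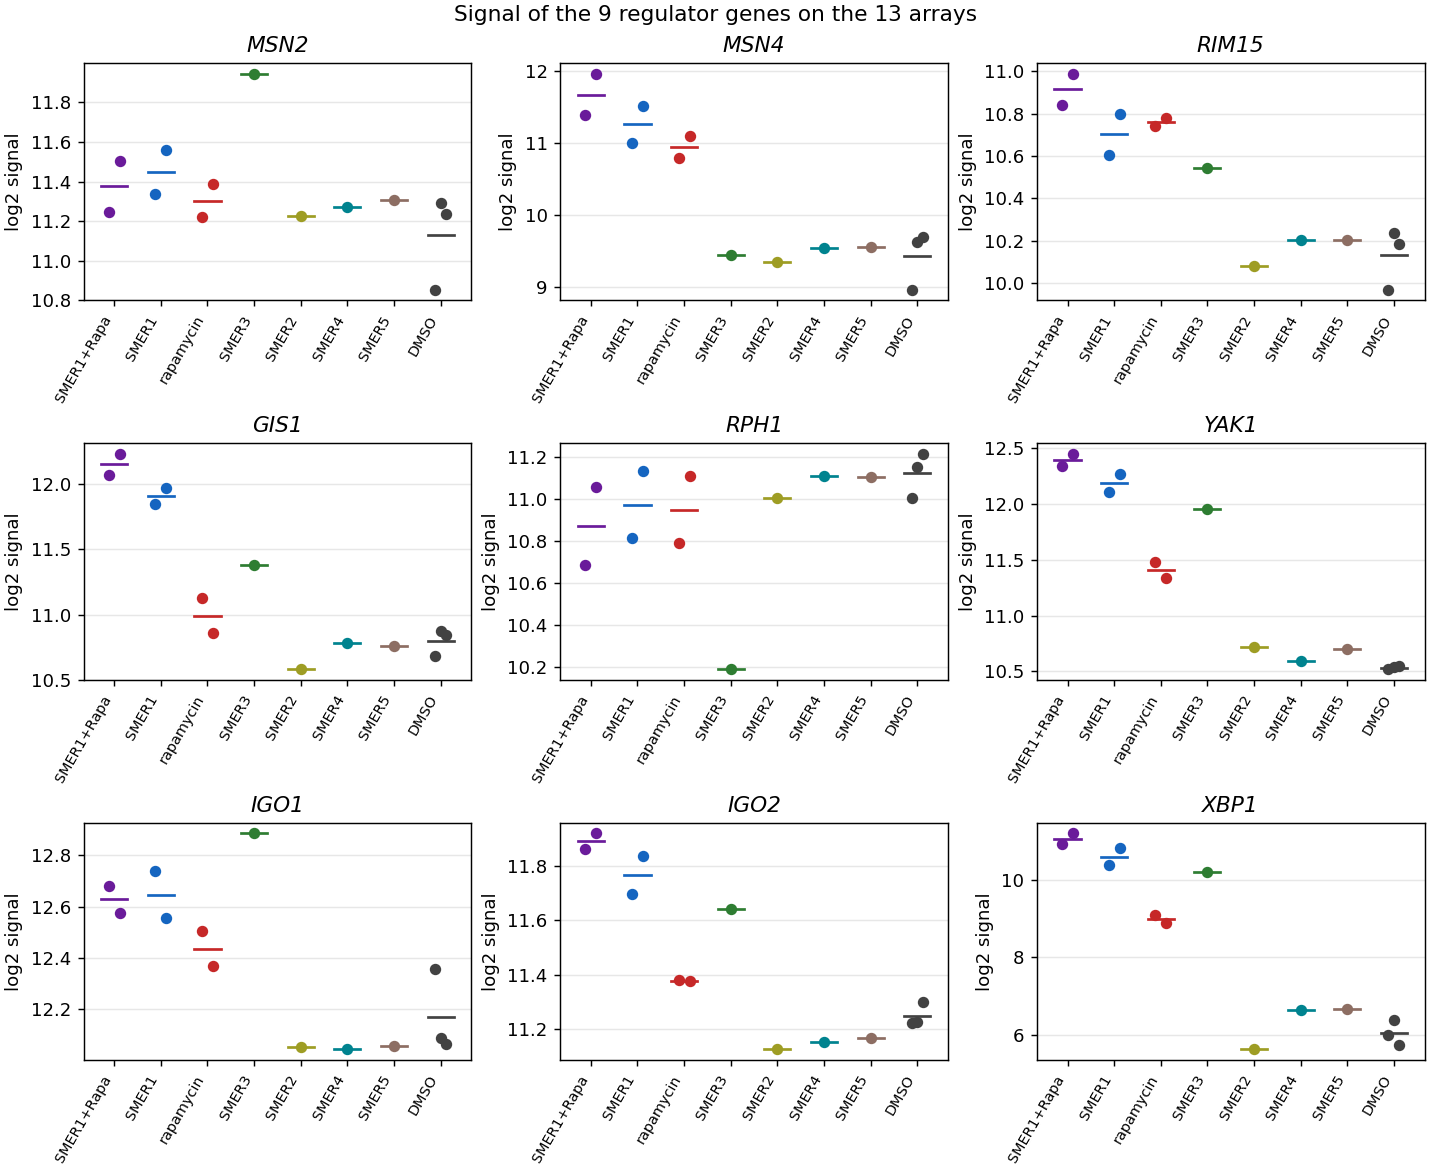
Log2 signal (vertical axis) of each of the 9 regulator genes on each of the 13 arrays, by group (horizontal axis). Points are single arrays, short lines are group means, and each gene has its own vertical scale. XBP1 lies at 8.87 or above on all 7 arrays treated with SMER1+Rapa, SMER1, rapamycin or SMER3 and at 6.67 or below on the other 6 arrays.

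**Figure D2:**
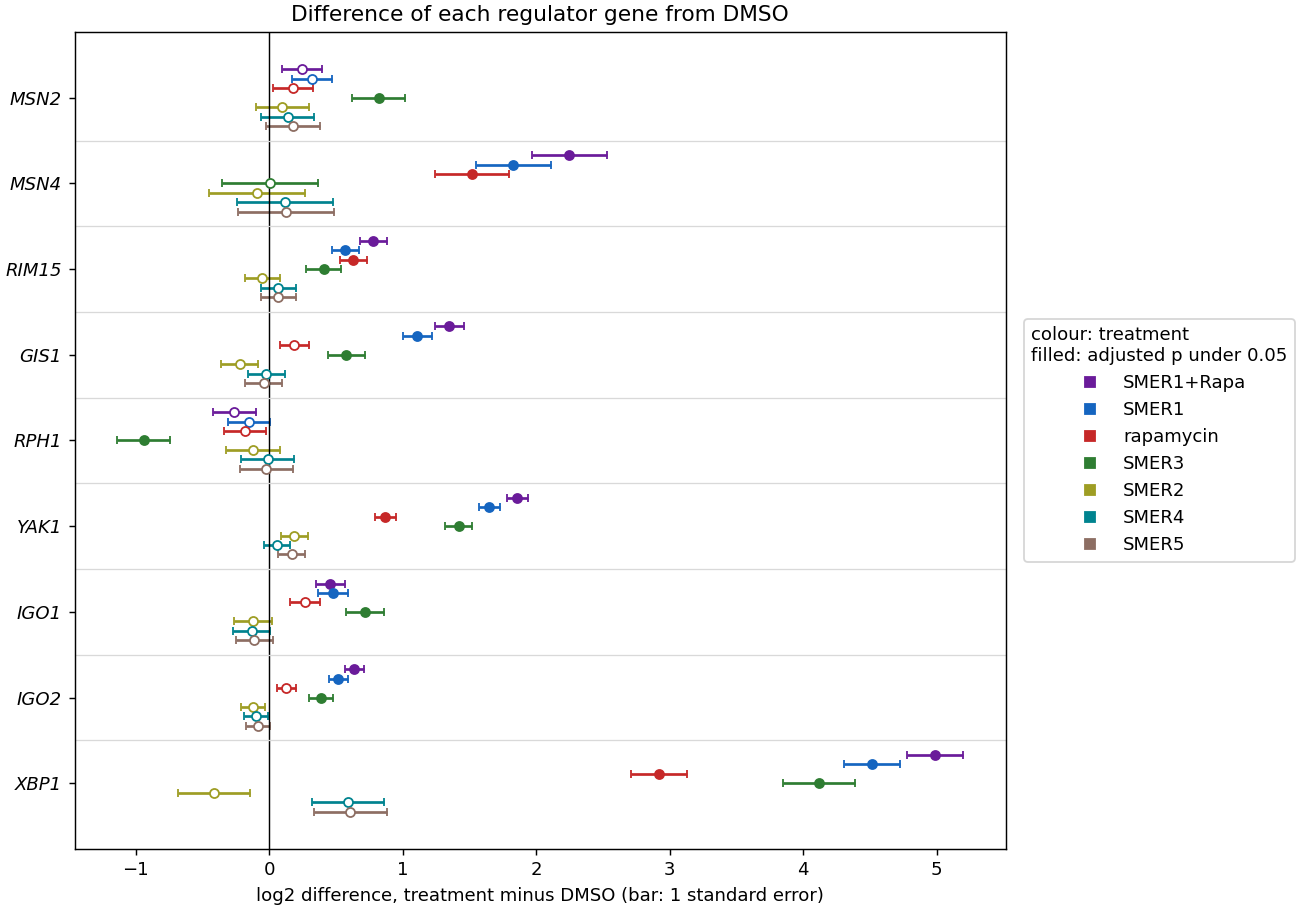
Log2 difference from DMSO (horizontal axis) of each gene under each treatment, with bars of 1 standard error from the limma fit. Filled points had an adjusted p under 0.05. SMER2, SMER4 and SMER5 have no filled point, and the only filled point left of 0 is RPH1 in SMER3.

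Among the kinases, YAK1 (YJL141C) encodes a protein kinase of the DYRK family that opposes growth driven by protein kinase A. Its signals were 12.34 and 12.45 with SMER1+Rapa, 12.10 and 12.27 with SMER1, 11.48 and 11.34 with rapamycin and 11.96 with SMER3, against 10.52, 10.54 and 10.54 with DMSO. All 7 of these treated arrays lay above every DMSO array, and the DMSO arrays spread by an SD of only 0.01. The difference from DMSO was 1.86 ± 0.08 with SMER1+Rapa (adjusted p = 1.05e-06), 1.65 ± 0.08 with SMER1 (adjusted p = 3.5e-06), 0.87 ± 0.08 with rapamycin (adjusted p = 6.38e-05) and 1.42 ± 0.10 with SMER3 (adjusted p = 4.69e-05). On a linear scale the rapamycin difference was 1.83-fold.

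RIM15 (YFL033C) encodes the kinase on which TORC1, Sch9 and protein kinase A signals converge to admit cells to quiescence. Its signals were 10.84 and 10.99 with SMER1+Rapa, 10.61 and 10.80 with SMER1, 10.74 and 10.78 with rapamycin and 10.54 with SMER3, against 9.97, 10.24 and 10.19 with DMSO. The treated arrays again all lay above the DMSO arrays, but the steps were smaller than those of YAK1. RIM15 rose by 0.78 ± 0.10 with SMER1+Rapa (adjusted p = 0.000289), 0.57 ± 0.10 with SMER1 (adjusted p = 0.00207) and 0.63 ± 0.10 with rapamycin (adjusted p = 0.00139). Its rise with SMER3, 0.41 ± 0.13, was close to the threshold (adjusted p = 0.0442), and it missed it after quantile normalisation (adjusted p = 0.0657) and without DMSO replicate 1 or 3, either SMER1+Rapa array or either rapamycin array (adjusted p 0.0602 to 0.0633).

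The endosulfines are the small proteins that Rim15 phosphorylates. IGO2 (YHR132W-A) gave 11.86 and 11.92 with SMER1+Rapa, 11.70 and 11.84 with SMER1, 11.38 and 11.38 with rapamycin and 11.64 with SMER3, against 11.22, 11.23 and 11.30 with DMSO. Its replicates lay close together, and it rose by 0.64 ± 0.07 with SMER1+Rapa (adjusted p = 7.76e-05), 0.52 ± 0.07 with SMER1 (adjusted p = 0.000367) and 0.39 ± 0.09 with SMER3 (adjusted p = 0.0097). With rapamycin the difference was 0.13 ± 0.07 (adjusted p = 0.136), although both rapamycin arrays lay above the 3 DMSO arrays. This difference was called, at 0.15, with the replicate number as a block (adjusted p = 0.0483).

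IGO1 (YNL157W) gave 12.68 and 12.58 with SMER1+Rapa, 12.74 and 12.55 with SMER1, 12.51 and 12.37 with rapamycin and 12.89 with SMER3, against 12.36, 12.09 and 12.06 with DMSO. The highest DMSO array stood just below the lower rapamycin array, so these groups nearly met. IGO1 rose by 0.46 ± 0.11 with SMER1+Rapa (adjusted p = 0.00692), 0.48 ± 0.11 with SMER1 (adjusted p = 0.00697) and 0.72 ± 0.14 with SMER3 (adjusted p = 0.00623). Its difference was 0.27 ± 0.11 with rapamycin (adjusted p = 0.0724), which passed without DMSO replicate 1 (0.36, adjusted p = 0.0149) and with an intensity trend in the prior variance (adjusted p = 0.0467). With the replicate number as a block it also passed (0.21, adjusted p = 0.0181). The SMER1 call was lost without SMER1 replicate 1 (adjusted p = 0.0561) and the SMER1+Rapa call without SMER1+Rapa replicate 1 (adjusted p = 0.0513).

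MSN2 and MSN4 encode paralogous zinc finger activators of the general stress response. MSN4 (YKL062W), whose own expression is known to respond to stress, gave 11.39 and 11.97 with SMER1+Rapa, 11.01 and 11.52 with SMER1, 10.80 and 11.11 with rapamycin and 9.44 with SMER3, against 8.97, 9.63 and 9.70 with DMSO. The 6 arrays with SMER1, rapamycin or both lay above all DMSO arrays, and the SMER3 array lay within the DMSO range. MSN4 rose by 2.25 ± 0.28 with SMER1+Rapa (adjusted p = 0.000212), 1.83 ± 0.28 with SMER1 (adjusted p = 0.000857) and 1.52 ± 0.28 with rapamycin (adjusted p = 0.00241), the last a 2.87-fold difference. With SMER3 the difference was 0.01 ± 0.36 (95% interval -0.83 to 0.84, adjusted p = 0.989), an interval that still admits changes of some size in either direction.

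MSN2 (YMR037C), regarded as the constitutively expressed paralog, gave 11.24 and 11.51 with SMER1+Rapa, 11.34 and 11.56 with SMER1, 11.22 and 11.39 with rapamycin and 11.94 with SMER3, against 10.85, 11.29 and 11.24 with DMSO. The SMER3 array stood above all others and DMSO replicate 1 below all others, by similar gaps. MSN2 rose by 0.82 ± 0.20 with SMER3 (adjusted p = 0.0149). Its differences were 0.25 ± 0.15 with SMER1+Rapa (adjusted p = 0.186), 0.32 ± 0.15 with SMER1 (adjusted p = 0.111) and 0.18 ± 0.15 with rapamycin (adjusted p = 0.361), none past the threshold. With the replicate number as a block they were 0.30, 0.37 and 0.23 in that order, all called (adjusted p 0.0123, 0.00621 and 0.037).

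GIS1 and RPH1 encode paralogous zinc finger proteins with a JmjC domain, the domain of histone demethylases. Gis1 acts on genes of the post-diauxic shift downstream of Rim15, and Rph1 is a histone demethylase that represses the DNA repair gene PHR1 and autophagy genes. GIS1 (YDR096W) gave 12.07 and 12.23 with SMER1+Rapa, 11.85 and 11.97 with SMER1, 11.12 and 10.86 with rapamycin and 11.38 with SMER3, against 10.68, 10.88 and 10.84 with DMSO. One rapamycin array lay within the DMSO range, and every SMER1, SMER1+Rapa and SMER3 array lay above it. GIS1 rose by 1.35 ± 0.11 with SMER1+Rapa (adjusted p = 1.66e-05), 1.11 ± 0.11 with SMER1 (adjusted p = 8.16e-05) and 0.58 ± 0.14 with SMER3 (adjusted p = 0.0133). Its difference was 0.19 ± 0.11 with rapamycin (adjusted p = 0.158).

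RPH1 (YER169W) gave 10.68 and 11.06 with SMER1+Rapa, 10.81 and 11.13 with SMER1, 10.79 and 11.11 with rapamycin and 10.19 with SMER3, against 11.01, 11.16 and 11.22 with DMSO. The replicates spread as widely as the groups differed, except that the SMER3 array was the lowest of all 13. RPH1 fell by 0.94 ± 0.20 with SMER3 (log2 difference -0.94, adjusted p = 0.00892). Its differences were -0.26 ± 0.16 with SMER1+Rapa (adjusted p = 0.182), -0.15 ± 0.16 with SMER1 (adjusted p = 0.427) and -0.18 ± 0.16 with rapamycin (adjusted p = 0.368). With the replicate number as a block the SMER1+Rapa difference was -0.21 and was called (adjusted p = 0.0305).

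XBP1 (YIL101C) encodes a stress-induced repressor whose DNA-binding domain is related to those of the cell cycle factors Swi4 and Mbp1. Its signals were 10.90 and 11.19 with SMER1+Rapa, 10.37 and 10.80 with SMER1, 9.09 and 8.87 with rapamycin and 10.18 with SMER3, against 6.01, 6.40 and 5.76 with DMSO. The gap between the lowest of these treated arrays and the highest DMSO array exceeded the whole range within any group. XBP1 rose by 4.99 ± 0.21 with SMER1+Rapa (adjusted p = 1.05e-06), 4.52 ± 0.21 with SMER1 (adjusted p = 3.23e-06), 2.92 ± 0.21 with rapamycin (adjusted p = 2.42e-05) and 4.12 ± 0.27 with SMER3 (adjusted p = 3.57e-05). The DMSO signals of XBP1 lay within the span of the deleted genes URA3, MET17 and LEU2, 1.97 to 8.61, and are not shown to be above background. The differences from DMSO may therefore understate the change, and no fold is given.

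The structures of the SMERs are not given here, and the compounds were compared at the same 20 µM and 30 min. Among the 5 SMERs, 8 of the 9 genes differed by a moderated F test, with 58.1% of all genes called by the same test. The adjusted p was 3.35e-05 for XBP1, 4.38e-05 for YAK1, 0.000606 for GIS1, 0.00132 for IGO2, 0.00646 for IGO1, 0.00775 for MSN4, 0.0214 for RIM15 and 0.0476 for RPH1, and MSN2 missed the threshold (adjusted p = 0.132). SMER1 and SMER3 were the compounds that stood apart from DMSO, and they were compared with each other directly.

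With SMER3 relative to SMER1, 3 of the 9 genes were lower and none higher, while 26.1% of all genes were called lower and 20.6% higher. MSN4 differed by -1.82 ± 0.38 (adjusted p = 0.00662), with 9.44 on the SMER3 array against 11.01 and 11.52 on the SMER1 arrays. RPH1 differed by -0.79 ± 0.21 (adjusted p = 0.0196) and GIS1 by -0.53 ± 0.14 (adjusted p = 0.0203). The RPH1 and GIS1 calls were lost without SMER1 replicate 2, to adjusted p = 0.077 and 0.0772. MSN2 differed by 0.50 ± 0.21 (adjusted p = 0.0874). It passed without DMSO replicate 1 (adjusted p = 0.0349) and with the replicate number as a block (adjusted p = 0.00303). XBP1 differed by -0.40 ± 0.28 (95% interval -1.06 to 0.26, adjusted p = 0.285) and YAK1 by -0.23 ± 0.10 (95% interval -0.47 to 0.02, adjusted p = 0.115). IGO1 (0.24 ± 0.15, adjusted p = 0.229, and 0.047 after quantile normalisation), RIM15 (-0.16 ± 0.14, adjusted p = 0.392) and IGO2 (-0.12 ± 0.09, adjusted p = 0.303) also missed the threshold. The 3 called genes are 33.3% of the 9, below the 46.7% of all genes called in either direction. The RPH1 and GIS1 calls also depended on 1 SMER1 array. For the other 6 genes 1 SMER3 array left the difference unresolved.

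With SMER2, SMER4 and SMER5, limma called none of the 9 genes, and none had an unadjusted p under 0.05. Over all genes, SMER2 gave calls in either direction for 0.312%, SMER4 for 0.0% and SMER5 for 0.0%, so an absence of calls among 9 genes matches the background. XBP1 gave 5.65 with SMER2, 6.65 with SMER4 and 6.67 with SMER5, against 6.01, 6.40 and 5.76 with DMSO. These 3 arrays fell on both sides of the DMSO range. The differences were -0.41 ± 0.27 with SMER2 (95% interval -1.03 to 0.21), 0.59 ± 0.27 with SMER4 (-0.03 to 1.21) and 0.61 ± 0.27 with SMER5 (-0.01 to 1.24). YAK1 gave 10.72, 10.59 and 10.71 in the same order, and its differences were 0.19 ± 0.10 (95% interval -0.04 to 0.42), 0.06 ± 0.10 (-0.17 to 0.29) and 0.17 ± 0.10 (-0.06 to 0.40). The other 7 genes differed by -0.22 to 0.10 with SMER2, -0.13 to 0.14 with SMER4 and -0.11 to 0.18 with SMER5.

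SMER1 was also set against rapamycin, each with 2 arrays. With SMER1, 4 of the 9 genes were higher and none lower, and 17.1% of all genes were called higher and 19.7% lower. XBP1 was higher by 1.60 ± 0.23 (adjusted p = 0.0017), GIS1 by 0.92 ± 0.12 (adjusted p = 0.001), YAK1 by 0.78 ± 0.09 (adjusted p = 0.000514) and IGO2 by 0.39 ± 0.07 (adjusted p = 0.0058). The SMER1 and rapamycin arrays of these 4 genes did not overlap, but neither did those of IGO1, which was not called (adjusted p = 0.218). The share of all genes without overlap was not counted. MSN4 differed by 0.31 ± 0.31 (adjusted p = 0.474), and the 5 uncalled genes ran between -0.06 and 0.31 (adjusted p 0.218 to 0.932).

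With SMER1+Rapa relative to rapamycin, the same 4 genes were higher and none lower, and 18.1% of all genes were called higher and 28.2% lower. The differences were 2.06 ± 0.23 for XBP1 (adjusted p = 0.00048), 1.16 ± 0.12 for GIS1 (adjusted p = 0.00034), 0.98 ± 0.09 for YAK1 (adjusted p = 0.000188) and 0.51 ± 0.07 for IGO2 (adjusted p = 0.0015). MSN4 differed by 0.72 ± 0.31 (adjusted p = 0.0915). It passed without DMSO replicate 1 (adjusted p = 0.0471) and with the replicate number as a block (adjusted p = 0.00171). These 2 comparisons share the rapamycin arrays. With SMER1+Rapa relative to SMER1, limma called none of the 9 genes, against 16.6% of all genes in either direction, and 1 of the 9, YAK1, had an unadjusted p under 0.05. The differences from SMER1 were 0.46 ± 0.23 for XBP1 (adjusted p = 0.239), 0.41 ± 0.31 for MSN4 (adjusted p = 0.445), 0.24 ± 0.12 for GIS1 (adjusted p = 0.23) and 0.21 ± 0.09 for YAK1 (adjusted p = 0.157).

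The interaction asked whether the effect of SMER1 was the same with and without rapamycin, that is, whether the combined difference equalled the sum of the single ones on the log2 scale. For 2 of the 9 genes the combination was called short of the sum and for none above it. Of all genes, 21.3% were called short of it and 4.42% above it. XBP1 differed from DMSO by 4.99 in the combination, against 7.45 for the sum (interaction -2.46 ± 0.31, adjusted p = 0.00195). YAK1 differed by 1.86, against 2.52 for the sum (interaction -0.66 ± 0.12, adjusted p = 0.0063). MSN4 gave 2.25 against 3.35 (-1.11 ± 0.42) and RIM15 0.78 against 1.20 (-0.42 ± 0.15), with adjusted p of 0.091 and 0.0866. For GIS1 the combination gave 1.35 against a sum of 1.30, and for IGO2 0.64 against 0.65. The 2 called genes are 22.2% of the 9, close to the share of all genes, and the XBP1 value includes the DMSO signals not shown to be above background. The median interaction was -0.28 over the 9 genes and -0.18 over all genes, and the second value depends on the normalisation.

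**Figure D3:**
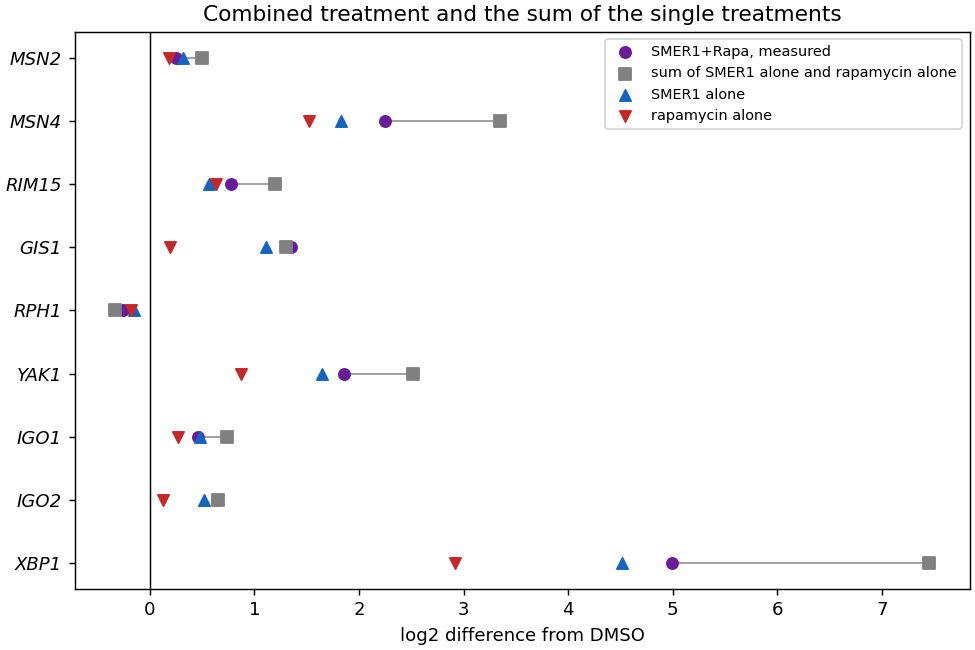
Log2 difference from DMSO (horizontal axis) of each of the 9 genes in the SMER1+Rapa combination (circles), in SMER1 alone and rapamycin alone (triangles), and as the sum of these single differences (squares). XBP1 shows the widest distance, 4.99 in the combination against a sum of 7.45, and GIS1 and IGO2 lie nearly on top of their sums.

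The deposited scale bears on these shifts, since the median of all genes was not 0. After quantile normalisation the all-gene median was 0.02 with rapamycin (0.16 as deposited), -0.05 with SMER1 (0.09), -0.10 with SMER3 (0.01) and 0.00 for the interaction (-0.18). The calls over all genes then became 1698 higher and 1516 lower with rapamycin (2165 and 1111 as deposited), 1682 and 1853 with SMER1 (1990 and 1362), 1006 and 1330 with SMER3 (1177 and 806), and 560 and 719 for the interaction (241 and 1160). Among the 9 genes, the XBP1 and YAK1 interactions were called on both scales, at -1.90 and -0.67 after quantile normalisation.

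In 2 of the 3 paralog pairs, the within-array difference separated the treated arrays compared here from the DMSO arrays. The 6 arrays treated with SMER1+Rapa, SMER1 or rapamycin were pooled and set against the 3 DMSO arrays, leaving out SMER3. The two-sided exact permutation test over 84 assignments was added after the values had been seen, when this separation was already visible. Its p-values restate the separation, treat 3 treatments as 1 condition and give no independent support. MSN4 gained 1.62 more than MSN2 on the log2 scale (exact p = 0.0238, the smallest these arrays allow, adjusted over the 3 pairs p = 0.0357). By treatment, the gain of MSN4 over MSN2 was 2.00 with SMER1+Rapa, 1.51 with SMER1 and 1.34 with rapamycin, whereas SMER3 gave -0.81 on its single array. GIS1 gained 1.08 more than RPH1 (exact p = 0.0238, adjusted p = 0.0357), at 1.61 with SMER1+Rapa, 1.26 with SMER1, 0.37 with rapamycin and 1.52 with SMER3. IGO1 and IGO2 differed in change by -0.03 (exact p = 0.833), with -0.18 for SMER1+Rapa, -0.04 for SMER1, 0.14 for rapamycin and 0.32 for SMER3. The endosulfine pair thus showed no called difference, but its values by treatment had both signs, so the pooled test does not show equal change. The SMER3 array gave the MSN4 and MSN2 pair the opposite sign to SMER1+Rapa, SMER1 and rapamycin.

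**Figure D4:**
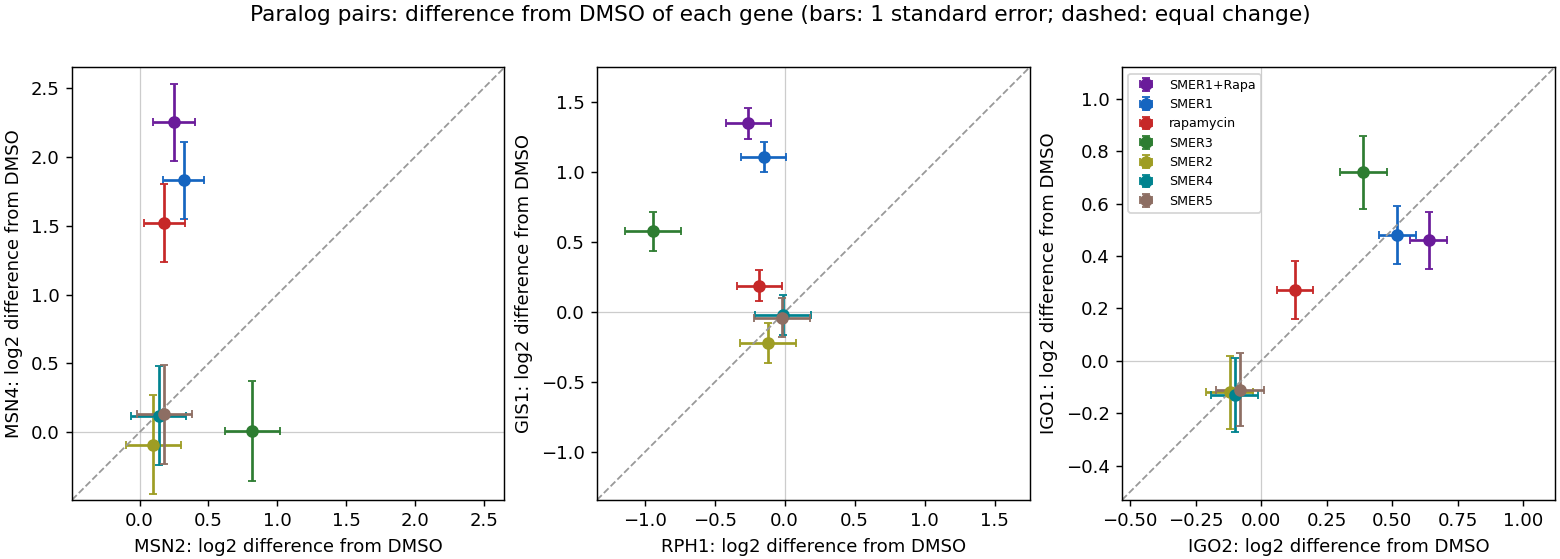
Log2 difference from DMSO of the paralogs of each pair: MSN4 (vertical) against MSN2 (horizontal), GIS1 against RPH1 and IGO1 against IGO2, 1 point per treatment with bars of 1 standard error. The dashed line marks equal change. For MSN4 and MSN2, the SMER3 point lies below the line and the SMER1+Rapa, SMER1 and rapamycin points lie above it.

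Ordered by group mean, XBP1 ran from 11.04 with SMER1+Rapa through 10.58 with SMER1, 10.18 with SMER3 and 8.98 with rapamycin to 6.67 with SMER5, 6.65 with SMER4, 6.06 with DMSO and 5.65 with SMER2. The only neighbouring groups called different were SMER3 and rapamycin (gap 1.20, adjusted p = 0.00996) and rapamycin and SMER5 (gap 2.31, adjusted p = 0.000599). SMER3 and SMER5 have 1 array each and so no spread of their own. YAK1 had the same 4 groups on top, in the same order, with called steps at the same places: SMER3 over rapamycin (gap 0.55, adjusted p = 0.00404) and rapamycin over the next group, SMER2 (gap 0.69, adjusted p = 0.00155). GIS1 stepped between SMER1 and SMER3 (gap 0.53, adjusted p = 0.0203), IGO2 between SMER3 and rapamycin (gap 0.26, adjusted p = 0.0431), MSN4 between rapamycin and SMER5 (gap 1.39, adjusted p = 0.0192) and RPH1 between SMER1+Rapa and SMER3, the lowest group (gap 0.68, adjusted p = 0.0267). MSN2, RIM15 and IGO1 had no called step between neighbouring groups. For these 3 genes only groups farther apart in the order differed, such as those called against DMSO above, and MSN2 with SMER3 over SMER1 missed the threshold (gap 0.50, adjusted p = 0.0874).

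Over the 8 group means, some of the 9 genes followed each other closely. Pearson's r was 0.98 for YAK1 with XBP1, 0.98 for YAK1 with IGO2 and 0.98 for GIS1 with IGO2. MSN2 and MSN4 gave 0.01 and MSN2 and RPH1 -0.96. Without the SMER3 array, which was highest for MSN2 and lowest for RPH1, these became 0.79 and -0.64, a comparison added after the values had been seen. All such values describe 8 points from 1 set of arrays and carry no test.

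The genes outside the 9 with the most similar pattern over the 8 group means, by the same r, were RTC3, GPX1 and GRE3 for YAK1 (0.998, 0.997 and 0.997), SEG1, QCR2 and LEE1 for RIM15 (0.997, 0.997 and 0.995), and HER1, MSK1 and ISU1 for XBP1 (0.996, 0.996 and 0.995). MSN4 was matched by ATG4, ATG34 and SSD1 (0.996, 0.995 and 0.995) and IGO2 by SPS100, GAC1 and SDD1 (0.997, 0.996 and 0.995). Atg4 is the protease that processes Atg8 in autophagy, and Gac1 is a regulatory subunit of the phosphatase that activates glycogen synthase. The closest genes were PNS1, DIT1 and HXT5 for GIS1 (0.991, 0.985 and 0.984), MET16, YDR003W-A and PDR10 for IGO1 (0.991, 0.988 and 0.986), MDJ1, YLL056C and VHR1 for MSN2 (0.986, 0.979 and 0.977) and NAM8, ILV5 and TRA1 for RPH1 (0.982, 0.98 and 0.976). The lower values belong to MSN2 and RPH1, whose means spanned little outside SMER3.

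Genes that act with or downstream of the regulators were taken from lists made with earlier results of these data known, so their counts are descriptions beside the background shares above. Of 30 targets of Msn2 and Msn4, 30 rose with SMER1+Rapa, 30 with SMER1, 29 with rapamycin and 30 with SMER3 (27 after quantile normalisation). Their medians were 2.74, 2.68, 1.40 and 1.74 in that order. With SMER1+Rapa the largest differences were 4.77 ± 0.21 for RTN2 (adjusted p = 1.25e-06), 4.66 ± 0.18 for the aldehyde dehydrogenase gene ALD3 (adjusted p = 7.4e-07), 4.51 ± 0.12 for SOL4 (adjusted p = 2.11e-07) and 4.41 ± 0.18 for CTT1, the cytosolic catalase (adjusted p = 8.95e-07). The targets were also called with SMER3, where MSN2 was called higher (0.82 ± 0.20) and MSN4 was not called (0.01 ± 0.36). With the replicate number as a block, MSN4 was called there too, at 0.40. Which of the 2 factors acted on the targets was not tested. With SMER3, CTT1 rose by 3.96 ± 0.23 (adjusted p = 2.1e-05). Relative to SMER1, SMER3 gave 21 targets lower and 4 higher (20 and 4 after quantile normalisation), with the glycogen phosphorylase gene GPH1 at -2.75 ± 0.11 (adjusted p = 1.27e-05). With SMER2, 2 of the 30 rose (1 after quantile normalisation), and with SMER4 and SMER5 none did. No gene of the other lists described below was called with SMER2, SMER4 or SMER5.

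Of 4 post-diauxic targets of Gis1, 3 rose with SMER1+Rapa, SMER1 and rapamycin and 2 with SMER3 (1 after quantile normalisation). HSP26, a small heat shock protein gene that is also on the Msn2 and Msn4 list, rose by 2.73 ± 0.26 with SMER1+Rapa, 2.67 ± 0.26 with SMER1, 1.34 ± 0.26 with rapamycin and 2.66 ± 0.33 with SMER3 (adjusted p 4.45e-05, 8.66e-05, 0.00305 and 0.000679). HSP12 is on both lists too, and HSP26 and HSP12 were the 2 called with SMER3, so the counts of these lists are not separate. GRE1 rose in the other 3 treatments and differed by -0.11 with SMER3, not called. SSA3 was the target that no treatment moved past the threshold, at -0.08 with SMER1+Rapa, 0.11 with SMER1, -0.11 with rapamycin and 0.25 with SMER3. Of 6 genes that Rph1 represses, 6 rose with SMER1+Rapa, 6 with SMER1 (5 after quantile normalisation), 5 with rapamycin and 5 with SMER3 (3). ATG8, whose product coats the autophagosome membrane, rose by 2.63 ± 0.09 with SMER1+Rapa, 2.27 ± 0.09 with SMER1, 2.16 ± 0.09 with rapamycin and 2.06 ± 0.11 with SMER3 (adjusted p 4.31e-07, 1.52e-06, 2.51e-06 and 1.67e-05). PHR1, the photolyase gene, rose by 2.49 ± 0.20, 1.84 ± 0.20 and 2.16 ± 0.20 in the first 3 treatments, and in SMER3 its difference was 0.49, not called. RPH1 itself was called, as lower, with SMER3 and, in the fit without a replicate block, with none of the other 3 treatments.

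The 4 cyclin genes listed as targets of repression by Xbp1 were not all called in each treatment in which XBP1 rose. With SMER3 all 4 fell, at -2.56 ± 0.26 for CLB2 (adjusted p = 0.000253), -1.42 ± 0.08 for CLN1 (adjusted p = 2.23e-05), -1.33 ± 0.15 for CLN3 (adjusted p = 0.000487) and -1.20 ± 0.09 for CLB1 (adjusted p = 5.71e-05). With SMER1+Rapa and with SMER1, CLB2 and CLN1 fell and the other 2 were not called, CLB2 at -1.07 ± 0.20 with SMER1+Rapa (adjusted p = 0.002) and -0.87 ± 0.20 with SMER1 (adjusted p = 0.00706). With rapamycin none fell, and CLN1 rose by 0.53 ± 0.07 (adjusted p = 0.000306) and CLB1 by 0.26 ± 0.07 (adjusted p = 0.0125). After quantile normalisation 3 were called lower with SMER1+Rapa and 1 higher with rapamycin. All 4 were lower with SMER3 than with SMER1, although XBP1 was not called between the 2. CLB2 and CLB1 are mitotic cyclin genes and CLN1 and CLN3 those of the start of the cycle, and whether the share of cells at each stage moved with the treatments was not tested.

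**Figure D5:**
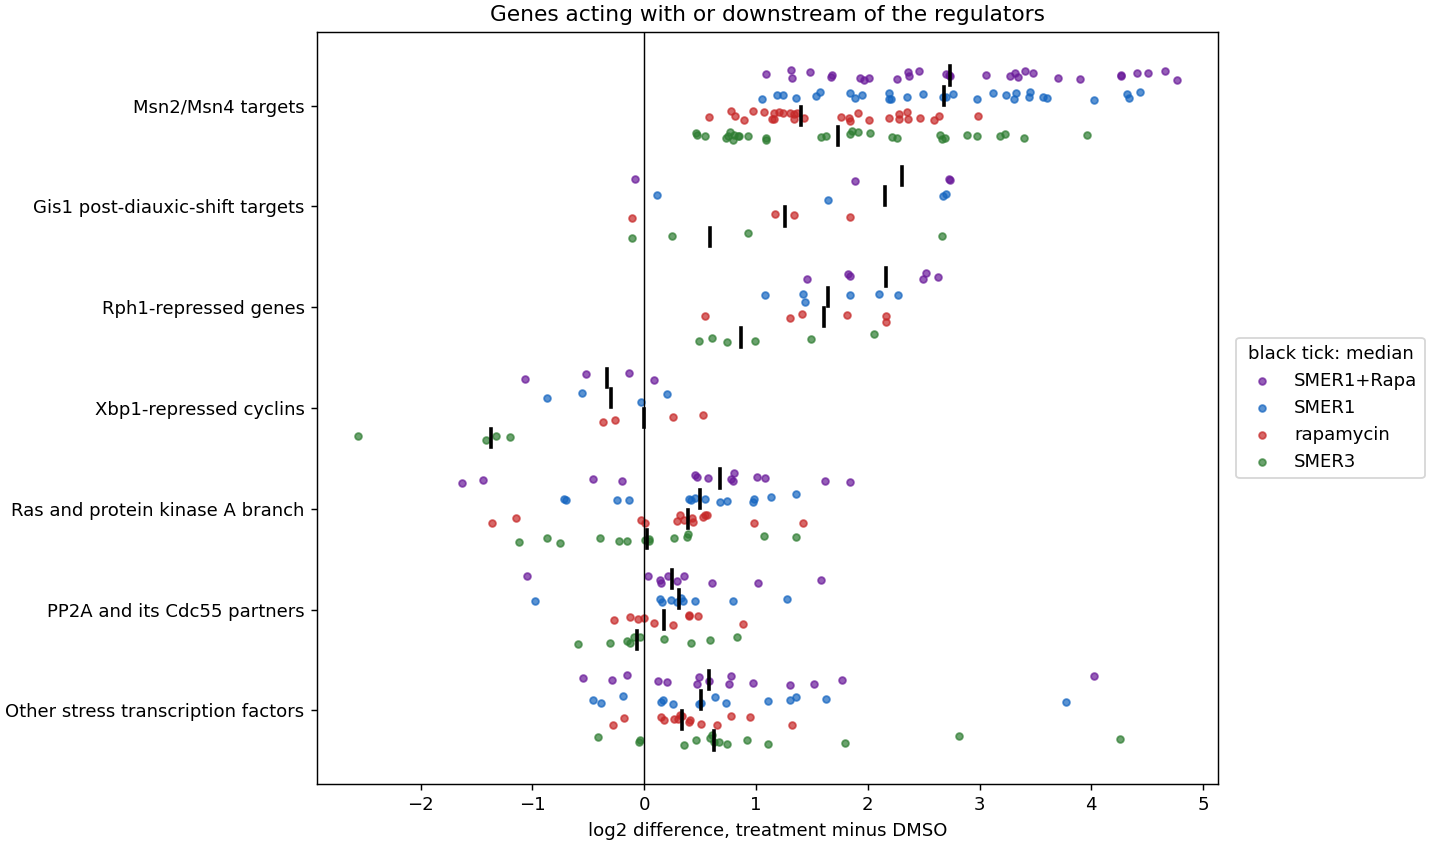
Log2 difference from DMSO (horizontal axis) of each gene in 7 lists, under SMER1+Rapa, SMER1, rapamycin and SMER3. Points are genes and black ticks are list medians. The Msn2/Msn4 targets all lie above 0, and the Xbp1-repressed cyclins lie lowest with SMER3, at a median of -1.37.

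Upstream, of 14 measured genes of the Ras and protein kinase A branch, which restrains Rim15, Msn2 and Msn4, 10 rose and 3 fell with SMER1+Rapa (9 and 3 after quantile normalisation), 9 and 2 with SMER1 (8 and 3), 8 and 2 with rapamycin, and 4 and 4 with SMER3 (3 and 4). PDE1, a phosphodiesterase that breaks down cyclic AMP, rose by 1.84 ± 0.09 with SMER1+Rapa (adjusted p = 2.11e-06), 1.13 ± 0.09 with SMER1 (adjusted p = 4.05e-05) and 1.42 ± 0.09 with rapamycin (adjusted p = 1.69e-05). Among genes for catalytic subunits of the kinase, TPK2 rose by 1.62 ± 0.11 with SMER1+Rapa (adjusted p = 8.59e-06) and 1.36 ± 0.14 with SMER3 (adjusted p = 0.000296), whereas TPK3 fell by 1.44 ± 0.11 with SMER1+Rapa (adjusted p = 1.66e-05). RAS1 fell by 1.63 ± 0.16 with SMER1+Rapa (adjusted p = 5.62e-05). The list holds genes acting for and against the branch, PDE1 among the latter, so its counts give no direction of branch activity. Of 9 genes of TORC1 and its Sch9 branch, 2 rose and 2 fell with SMER1+Rapa, 2 and 1 with SMER1 (2 and 3 after quantile normalisation), 3 and 1 with rapamycin, and 3 and 1 with SMER3 (3 and 3). LST8, a TOR complex subunit, rose most with SMER3, by 1.56 ± 0.09 (adjusted p = 1.88e-05), and SCH9 fell by 0.80 ± 0.21 there (adjusted p = 0.0225).

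A list of 10 genes covered PP2A, whose Cdc55 form the endosulfines inhibit, and its partners. The list is not limited to that form, and RTS1, another regulatory subunit, is counted in it. Of the 10, 6 rose and 1 fell with SMER1+Rapa (4 and 1 after quantile normalisation), and 6 and 1 with SMER1 (4 and 1). With rapamycin 5 rose and 1 fell (4 and 1), and with SMER3 3 and 2. PPM1, the methyltransferase of the PP2A catalytic subunits, rose by 1.58 ± 0.06 with SMER1+Rapa (adjusted p = 8.31e-07), and ZDS2, a Cdc55-binding protein gene, fell by 1.05 ± 0.07 (adjusted p = 7.17e-06). CDC55 itself fell by 0.27 ± 0.07 with rapamycin (adjusted p = 0.0107) and was not called with SMER1+Rapa (0.03), SMER1 (0.14) or SMER3 (-0.09). Of 10 genes that localise or modify Rim15, Msn2 and Msn4, 6 rose with SMER1+Rapa, 7 with SMER1 (6 after quantile normalisation), 5 with rapamycin (3) and 2 with SMER3, where 1 fell. PHO85, a cyclin-dependent kinase that keeps Rim15 in the cytoplasm, rose by 1.17 ± 0.09 with SMER1+Rapa (adjusted p = 1.77e-05), 0.53 ± 0.09 with SMER1 (adjusted p = 0.00191) and 1.18 ± 0.09 with rapamycin (adjusted p = 3.79e-05). Of 4 Yak1 substrates, CRF1, BCY1 and HSF1 rose with SMER1+Rapa, SMER1 and rapamycin, and CRF1 and HSF1 rose while POP2 fell with SMER3. After quantile normalisation 1 of the 4 was also called lower with SMER1+Rapa. CRF1, a corepressor of ribosomal protein genes, rose by 1.73 ± 0.28 with SMER1+Rapa (adjusted p = 0.000944) and 2.90 ± 0.36 with SMER3 (adjusted p = 0.000682).

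Of 15 other stress transcription factors, 10 rose and 2 fell with SMER1+Rapa (11 and 2 after quantile normalisation), 11 and 2 with SMER1 (11 and 3), 10 and none with rapamycin (7 and 2), and 10 and none with SMER3 (9 and 1). USV1 rose by 4.02 ± 0.17 with SMER1+Rapa (adjusted p = 1.12e-06), 3.77 ± 0.17 with SMER1 (adjusted p = 3.22e-06), 1.32 ± 0.17 with rapamycin (adjusted p = 0.000428) and 2.82 ± 0.22 with SMER3 (adjusted p = 7.78e-05). CIN5, a basic leucine zipper factor, rose by 4.26 ± 0.26 with SMER3 (adjusted p = 2.63e-05) and 1.77 ± 0.20 with SMER1+Rapa (adjusted p = 0.000134). Of the 3 JmjC proteins besides Gis1 and Rph1, only JHD1 rose with SMER1+Rapa and with SMER1 and none was called with rapamycin, while with SMER3 JHD1 rose and JHD2 fell by 0.57 ± 0.11 (adjusted p = 0.00542). After quantile normalisation none of the 3 rose with SMER1 or SMER3, and 1 was called lower with rapamycin. Of 9 other quiescence regulators, 4 rose and 2 fell with SMER1+Rapa (3 and 2 after quantile normalisation), 4 and 1 with SMER1, 3 and none with rapamycin (2 and none), and 3 and 2 with SMER3. SLT2, the kinase of the cell integrity pathway, rose by 1.15 ± 0.08 with SMER1+Rapa (adjusted p = 8.07e-06), 0.94 ± 0.08 with SMER1 (adjusted p = 4.19e-05), 1.76 ± 0.08 with rapamycin (adjusted p = 3.42e-06) and 0.93 ± 0.10 with SMER3 (adjusted p = 0.00034).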

How the data were processed

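RNA of 13 samples was measured on one-colour Affymetrix yeast arrays. The deposited values are log2 signal intensities, a scale judged from their range, 0 to 14.67, and how the authors corrected background, summarised probes and normalised arrays is not given in the sources used here. Of 5716 probe sets, 5498 had 1 gene symbol (12 updated through the R64 gene table, used for names only) and 218 had none and were left out. Where several probe sets named a gene (47 genes) the brightest was kept, leaving 5449 genes.

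The values were fitted as deposited with limma 3.58.1 in R 4.3.3, with 1 mean per group over all 13 arrays and eBayes moderation (5 residual and 2.36 prior degrees of freedom). All tests were two-sided, and p-values were Benjamini-Hochberg adjusted over 5449 genes. The fit was also run on simulated arrays, with independent errors and fewer changed genes than rapamycin or SMER3 gave here. That run does not check the fit for arrays that share deviations. The threshold was 0.05, and the number of arrays limits the precision.

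The 9 genes and all lists (Msn2/Msn4, Gis1, Rph1 and Xbp1 targets, Yak1 substrates, TORC1 and Sch9, Ras and protein kinase A, PP2A, localisation, other stress factors, JmjC proteins, other quiescence regulators, mating type and strain markers) were chosen with earlier results of these data known. All 9 genes are named, plus genes of each list chosen by size of difference and the 3 nearest genes of each by r. A few list genes are also given in other treatments, or for not being called (SSA3, GRE1, PHR1, CDC55), and were chosen after their values were seen. Alternatives were quantile normalisation, leaving out the dimmest 25% of genes, averaging probe sets, an intensity trend, replicated groups only, a replicate block and leaving out each array.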

Additional observations from a re-analysis of the deposited data

Results flagged for a closer look

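The effect of SMER1 on XBP1 differed with and without rapamycin, with an interaction of -2.46 ± 0.31 (limma, adjusted p = 0.00195). The effect of SMER1 on YAK1 also differed, with an interaction of -0.66 ± 0.12 (limma, adjusted p = 0.0063). Both genes rose in each of the 3 treatments, and the combination gave less than the sum of the single differences. The 2 genes are 22.2% of the 9 regulators, close to the 21.3% of all genes called lower in the same test, and the XBP1 value includes DMSO signals not shown to be above background. Groups held 3 arrays or fewer, and no array was tested for standing apart from its group.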

How the results depend on the processing

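Arrays are few, 4 treatments rest on 1 array and detection calls are missing, so small differences and dim signals are the least certain. With the samples' replicate number as a block (replicate block), more of the 9 genes were called: 7 with rapamycin against DMSO (4 without the block), 8 with SMER1, 9 with SMER1+Rapa, 9 with SMER3, 6 for SMER1 against rapamycin and 6 for SMER1+Rapa against rapamycin (MSN4 among both), 4 for SMER3 against SMER1 (MSN2 among them), 1 between SMER1+Rapa and SMER1 (MSN4, against 0), 4 in the interaction (2 without) and 9 among the SMERs. The labels give the arrays no more than a replicate number. Deviations of replicate 1 arrays from their group means correlated over genes at 0.43 to 0.60 in every pair of groups. For replicate 2 this r ran from 0.07 to 0.13 in the pairs with DMSO. In the other pairs it equals that of replicate 1, since 2 arrays deviate from their mean in mirror image. Same-numbered arrays thus shared part of their deviation, DMSO replicate 2 little of it. The numbers were not taken to pair the arrays, since an r of 0.1 in every pair had been required. Whether the block fit is the better one was not tested. Replicate 2 lay above replicate 1 in 4 of 4 groups for MSN2, MSN4, RPH1 and RIM15 and in 0 of 4 for IGO1.

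Without the dimmest 25% of genes the interaction was called for 1 gene, since XBP1 is among those left out. Leaving out 1 array at a time, the calls numbered 1 to 4 for SMER3 against SMER1 and 5 to 8 among the SMERs, both lowest without SMER1 replicate 2. They numbered 4 to 5 with rapamycin, 6 to 7 with SMER1, 6 to 7 with SMER1+Rapa and 7 to 8 with SMER3. The RIM15 call with SMER3 was lost without DMSO replicate 1 or 3 and without either SMER1+Rapa or rapamycin array. Over all comparisons of the 9 genes, 25 values changed sign under at least 1 alternative, in 50 instances, none of them called. Among the differences from DMSO given in the text, these were MSN4 with SMER3 (-0.12 after quantile normalisation, -0.23 to 0.14 leaving out arrays, 0.40 with the block, where it was called), RPH1 with SMER1 (-0.31 to 0.01) and the IGO1 and IGO2 pair (-0.11 to 0.08). Without any 1 DMSO array the exact permutation test of the paralogs cannot go below p = 0.0714, and the MSN4 and MSN2 difference ran between 1.52 and 1.70.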
